A study of Mus musculus with 40 samples.

Results

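The mouse clustered protocadherin genes lie side by side on chromosome 18 as an alpha, a beta and a gamma cluster, and their DNA methylation was described here in 2 stages of B-cell development. The members are all tiles (windows of 100 bp) of the deposited methylation table that start between positions 37050000 and 38050000 of chromosome 18 (mm9), 738 of 971845 tiles in all. They were chosen by position and not by level. In the RefSeq gene order for GRCm38, 14 alpha genes (Pcdha1 to Pcdhac2) come first, then 22 beta genes (Pcdhb1 to Pcdhb22), then Slc25a2 and Taf7, then 22 gamma genes (Pcdhga1 to Pcdhgc5), then Diaph1. That order gives names only: no annotation of mm9 was at hand, so a tile carries no gene, exon or promoter name.

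Clustered protocadherins are cell adhesion proteins best known from neurons, where each cell switches on a different small set of them and uses the combination to tell its own branches from those of other cells. Many variable exons of the alpha and gamma clusters have a promoter of their own in front of them and are spliced to shared constant exons, whereas the beta genes are single exons. Promoter choice goes with DNA methylation and with binding of CTCF and cohesin, methylated promoters being the silent ones, and most non-neural cells express the clusters weakly. The Tet enzymes oxidise methylated cytosines, which opens a route to their demethylation, and Tet2 and Tet3 are the members deleted in this study.

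Reduced representation bisulfite sequencing (RRBS), which reads methylation in CpG-rich restriction fragments, was made on pro-B cells, an early stage, and on follicular B cells, a mature resting stage, of C57/bl mice. Each stage had 3 libraries of wild type (WT), 3 of Tet2KO, 3 of Tet3KO and 3 of the double knockout (DKO), 24 in all, and the comparisons ask how levels differ between the stages and when the enzymes are missing. Library numbers are those in the sample titles, and libraries whose numbers differ by 12 share genotype, sex and age. Per the labels the knockouts were inducible and driven by the MB1 promoter, which is active in B-lineage cells; how completely the genes were deleted could not be seen in methylation tiles. The WT libraries of each stage came from a male of 8 weeks, a male of 6 weeks and a female of 6 weeks. All Tet2KO libraries came from females, 1 of 8 and 2 of 6 weeks. Tet3KO libraries came from 2 males and 1 female of 7 weeks, and DKO libraries from 2 males of 7 weeks and a female of 6 weeks. By sex and age the 3 WT libraries of a stage stem from different animals. Libraries of 1 knockout group that share sex and age are not said to do so, and the p-values below therefore cover the spread between these libraries and no more. Cell identity could not be checked against marker genes, since the tiles have no gene names.

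Levels came without read counts. Their depth was therefore unknown, and 0 or 100% at a tile may reflect only a few reads. The number of tiles with a value stands in for depth. In the window it was 23 in pro-B Tet3KO library 8, 284 to 526 in the other 11 pro-B libraries and 376 to 512 in the 12 follicular libraries. Of the 738 tiles, 99 had no value in any library, 639 had one in at least 1 library, 211 had 2 or more values in each of the 8 groups and were tested, and 135 had a value in all 23 libraries other than library 8 (the common tiles). Library 8 had a mean of 26.1% over its 23 tiles, where the other libraries had 17.8 to 31.5%. It stands apart by its few tiles and enters only tests at single tiles where it has a value.

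Most common tiles of the window were neither methylated nor unmethylated but in between. Of the 135 common tiles, 82 (60.7%) had a mean level of 20 to 80% over the 23 libraries, here called intermediate, 34 (25.2%) were under 20% and 19 (14.1%) over 80%. The median tile stood at 44.4%. The tiles left out were more methylated: over all window tiles with a value in a library, library means had a median of 61.9% (46.2 to 63.7%), against 44.2% (37.4 to 46.8%) over the common tiles. In 1 Mb on either side of the window, 240 common tiles had 12.5% at intermediate levels, 80.8% under 20% and a median of 0.663%. Among all 128596 common autosomal tiles 10.05% were intermediate, 66.5% were under 20% and the median was 2.29%. These shares are a description with no test, since neighbouring tiles are not replicates.

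**Figure D1:**
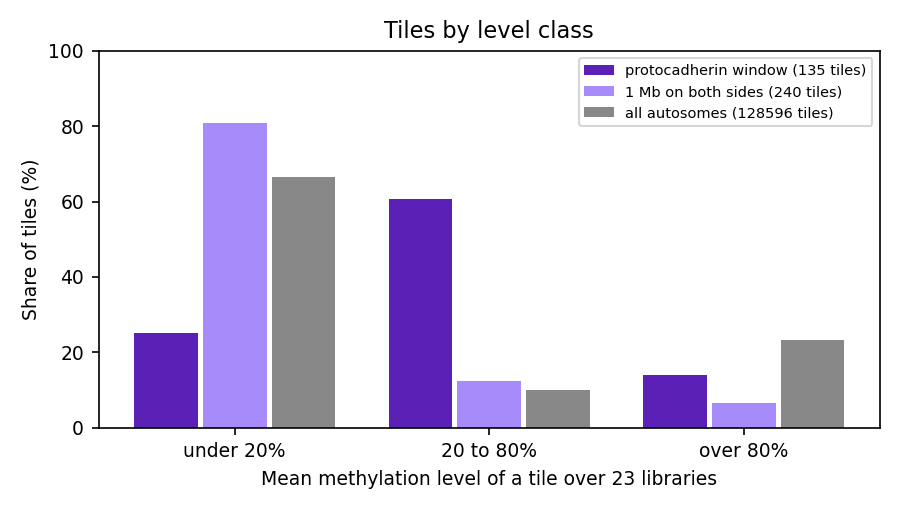
Share of common tiles (%) by mean methylation level over 23 libraries, for the protocadherin window (135 tiles), for 1 Mb on both sides (240 tiles) and for all autosomes (128596 tiles). The tallest bar of the window is the class of 20 to 80% (60.7%), that of the flanks and of the autosomes the class under 20% (80.8% and 66.5%).

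Most of the 82 intermediate tiles were intermediate in every group and not only on average. In the window 55 of 135 tiles (40.7%) had a mean of 20 to 80% in each of the 8 groups, against 3.95% of autosomal tiles. The rest of the 82 had some group mean outside that range. A level of 20 to 80% in every one of the 23 libraries was rarer, at 9 tiles (6.67%) against 0.732%. Single libraries showed the same picture: tiles of 20 to 80% made up 47.4 to 54.8% of the window in pro-B libraries and 57.8 to 63.7% in follicular libraries, so the stages did not overlap. Over the autosomes the same share was 9.69 to 10.7% and 10.2 to 11.4%. Pro-B libraries also had fewer valued window tiles at the median (385 against 467), though the ranges overlapped, and the part of this in the difference was not tested.

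Intermediate tiles of the window were about as variable between libraries as intermediate tiles elsewhere. The median SD within a group was 12.5 percentage points in the window and 12.9 over the autosomes. Pro-B libraries were the noisier ones, with 14.9 points in the window against 8.11 in follicular libraries; over the autosomes the values were 15.8 and 8.62. Abutting tiles whose average level was intermediate lay somewhat closer in level in the window than over the autosomes. A pair entered by the average of its tiles, so either tile could itself lie outside the intermediate range. In 48 such pairs the median difference in mean level was 13.5 points, and 25% of pairs differed by more than 20 points. Among 5328 autosomal pairs chosen alike the median was 16.1 points and 41.7% differed by more than 20. The part of pairs of a low and a high tile in these values was not tested.

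Along the window the level was high in the middle, mixed at both sides and low on average in the last 100 kb. In steps of 100 kb from the start, the mean over 23 libraries was 52.8% (10 common tiles), 41.3% (9), 28.3% (10), 28.9% (6), 67.6% (9), 68.0% (5), 76.9% (2), 36.2% (19), 53.9% (49) and 9.31% (16). The step of 800 to 900 kb holds the most common tiles, 49, of which 43 were intermediate. Its mean was 55.0% ± 1.10 in follicular WT and 49.6% ± 3.05 in pro-B WT (SD, n = 3 each), and it ranged from 47.3 to 60.5% over the 23 libraries. The mean of the last step stayed low in every library, at 4.81 to 13.3%, though its highest tile had a mean of 50.3%. The lowest common tile of the window, at chr18:37803701-37803800, had a mean of 0.155% and at most 2.66%, and the highest, at chr18:37455401-37455500, had 98.6% and at least 90.9%. The plot of levels along the window shows that tiles close together could still lie on different sides of the intermediate class.

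**Figure D2:**
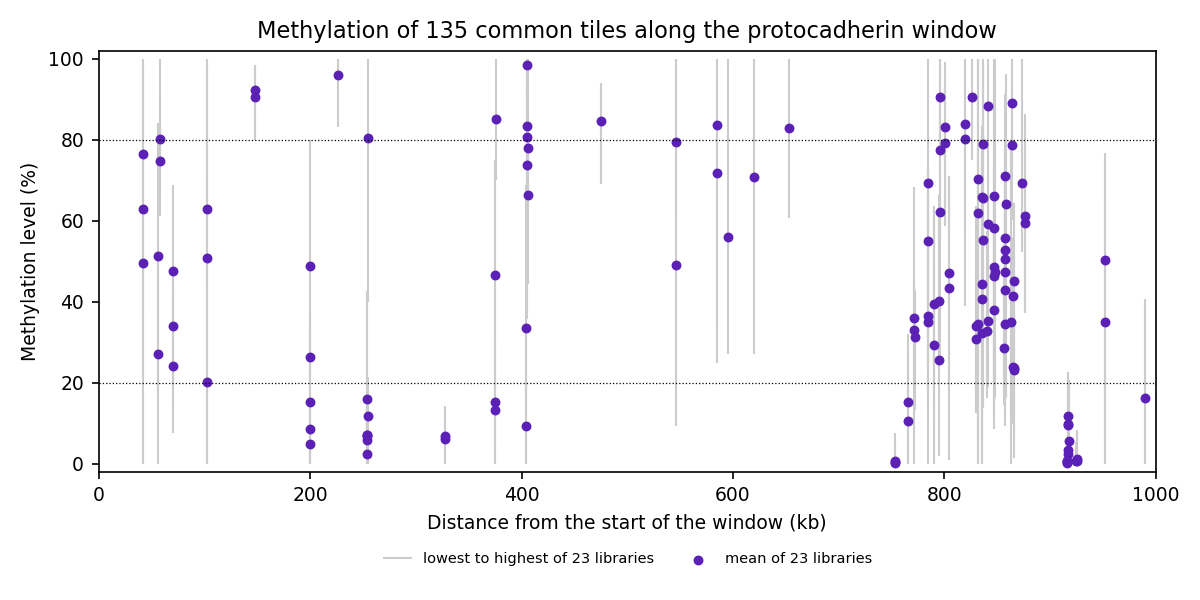
Mean methylation level (%) of the 135 common tiles against distance from the start of the window (kb); grey lines run from the lowest to the highest of 23 libraries and dotted lines mark 20 and 80%. Points between 800 and 900 kb fill the intermediate range, and 14 of the 16 points past 900 kb lie under 20%.

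Levels along the window were similar between groups, less so in pro-B cells. Across the 135 tiles, Pearson's r between group means was 0.973 to 0.978 for the follicular knockouts and WT, 0.868 (Tet3KO) to 0.921 (DKO) for the pro-B knockouts and WT, and 0.914 (Tet3KO) to 0.962 (Tet2KO) between the stages. Over the autosomes the same 10 values ran from 0.978 to 0.996, each above its value in the window. These values describe tiles of the same libraries, and much of them comes from differences between tiles that all groups share.

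Where tiles crowd together they are mostly unmethylated over the autosomes, and in the window they were mostly intermediate. RRBS lists more tiles where CpG-rich fragments crowd together, so the number of other listed tiles within 500 bp is a rough measure of that density. Common tiles of the window with 6 to 10 such neighbours (74 tiles) had a mean of 41.0% and 64.9% of them were intermediate. Autosomal tiles as crowded had a mean of 13.1%, a median of 0.587% and 5.37% at intermediate levels. For isolated tiles with 0 to 2 neighbours the order turned, with 45.7% in the window (22 tiles) against 64.6% over the autosomes. The flanks were like the window there, at 46.9% (22 tiles), but not at tiles with 6 to 10 neighbours, where their mean was 5.13% (150 tiles).

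Dense runs give the same comparison with less noise, since each averages at least 5 common tiles whose starts lie no more than 300 bp apart. The window holds 5 runs, 3 of them intermediate, of which 1 only just, at 20.8%. Over the autosomes 3.02% of 7889 runs were intermediate and 89.7% were under 20%. With runs of at least 3 tiles, 15 of 21 in the window were intermediate (71.4%) against 7.48% of 16440. The 2 highest runs of the window both lie in the step of 800 to 900 kb. At chr18:37907101-37908000 (8 tiles) the mean was 52.4%, with group means from 46.6% ± 3.13 in pro-B WT to 57.1% ± 3.86 in follicular Tet3KO (SD, n = 3 each). At chr18:37896801-37897600 (6 tiles) it was 50.8%, from 44.4% ± 4.32 in follicular DKO to 56.2% ± 7.33 in pro-B Tet2KO. In the latter run the follicular DKO libraries (39.5 to 47.6%) overlapped the pro-B WT libraries (40.8 to 56.5%).

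The other 3 runs were lower. At chr18:37249601-37250100 (5 tiles, mean 20.8%) the pro-B WT libraries had 24.1, 23.4 and 22.8%. The pro-B Tet2KO libraries had 12.5, 17.4 and 16.3% and Tet3KO libraries 7 and 9 had 14.9 and 14.1%, so both single knockouts lay below WT without overlap. The pro-B DKO libraries, at 23.4, 21.5 and 15.9%, overlapped WT. Follicular libraries of all 4 genotypes stood at 19.6 to 25.7%. The difference of pro-B Tet2KO from WT fell short of the test, at -8.05 points (limma, adjusted p = 0.357). The run at chr18:37303501-37304700 (8 tiles) had 17.2%, and that at chr18:37966901-37967700 (6 tiles) had 7.10%, with at most 12.1% in any library.

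No run of the window passed the test in any of the 10 comparisons of stage or genotype. A run was called where the Benjamini-Hochberg adjusted p over all 7889 runs was under 0.05 and the difference at least 10 points. The share of autosomal runs called was itself small. Against WT it was 0.0761% higher in follicular DKO, 0.0507% in pro-B DKO and 0.0127% in pro-B Tet3KO, and 0% in the other genotype comparisons, with 0% lower in all 6. Between the stages it was 0.0634% higher in follicular cells of WT mice, 0.0507% for Tet2KO, 0.177% for Tet3KO and 0.19% for DKO, with 0.0127% lower in Tet3KO and in DKO and 0% in WT and Tet2KO.

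At an unadjusted p under 0.05, 0 of the 5 runs differed in follicular DKO against WT, where 8.34% of autosomal runs were higher and 0.646% lower. Likewise 0 differed between the stages in WT, against 8.34% and 1.57%. The run at chr18:37249601-37250100 was the one below WT at that p in pro-B Tet2KO (2.18% of autosomal runs) and in pro-B Tet3KO (2.35%). It was also the one higher in follicular than in pro-B cells in Tet2KO (6.48%) and in Tet3KO (10.3%). The run at chr18:37907101-37908000 was above WT at that p in pro-B Tet2KO (4.68%).

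Follicular libraries stood above pro-B libraries in the window, most clearly in WT. Over the 135 common tiles, pro-B WT libraries 1, 2 and 3 had mean levels of 41.5, 41.6 and 41.9%, and follicular WT libraries 13, 14 and 15 had 46.4, 45.9 and 44.2%. The groups did not overlap, and the difference of means was 3.83 points (SE 0.674). Over all common autosomal tiles the same difference was 1.20 points (SE 0.206). The window differs from the autosomes in makeup, so the comparison is fairer at intermediate tiles, where it was 5.63 points (SE 1.01) in the window and 6.47 points (SE 1.31) over the autosomes. A mean over the window has no p here, since it is a score over the members.

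Differences between the stages had the same sign in the knockouts. In Tet3KO the window stood at 40.2 and 43.0% in pro-B libraries 7 and 9 and at 44.8, 46.2 and 46.6% in follicular libraries, with no overlap and a difference of 4.24 points (SE 1.51). In Tet2KO it was at 44.0, 46.1 and 42.6% in pro-B and 46.8, 45.7 and 46.2% in follicular libraries. In DKO it was at 45.3, 42.5 and 37.4% in pro-B and 44.0, 44.7 and 43.3% in follicular libraries. In Tet2KO and DKO the stages overlapped, with differences of 1.99 points (SE 1.09) and 2.29 points (SE 2.35). Pro-B DKO library 12, at 37.4%, was the lowest of all and had values for only 289 window tiles. The 4 pro-B libraries with the most window tiles (libraries 4, 5, 10 and 11, with 464, 526, 464 and 428) had means of 42.5 to 46.1%, which overlap the follicular range of 43.3 to 46.8%. All 3 pro-B WT libraries had fewer valued tiles than the follicular WT libraries (284, 385 and 414 against 512, 471 and 501), so depth and stage cannot be told apart in WT. Among the 82 intermediate tiles, 11 were without overlap higher and 4 lower in follicular than in pro-B WT, against 19.1% and 5.08% of intermediate autosomal tiles.

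**Figure D3:**
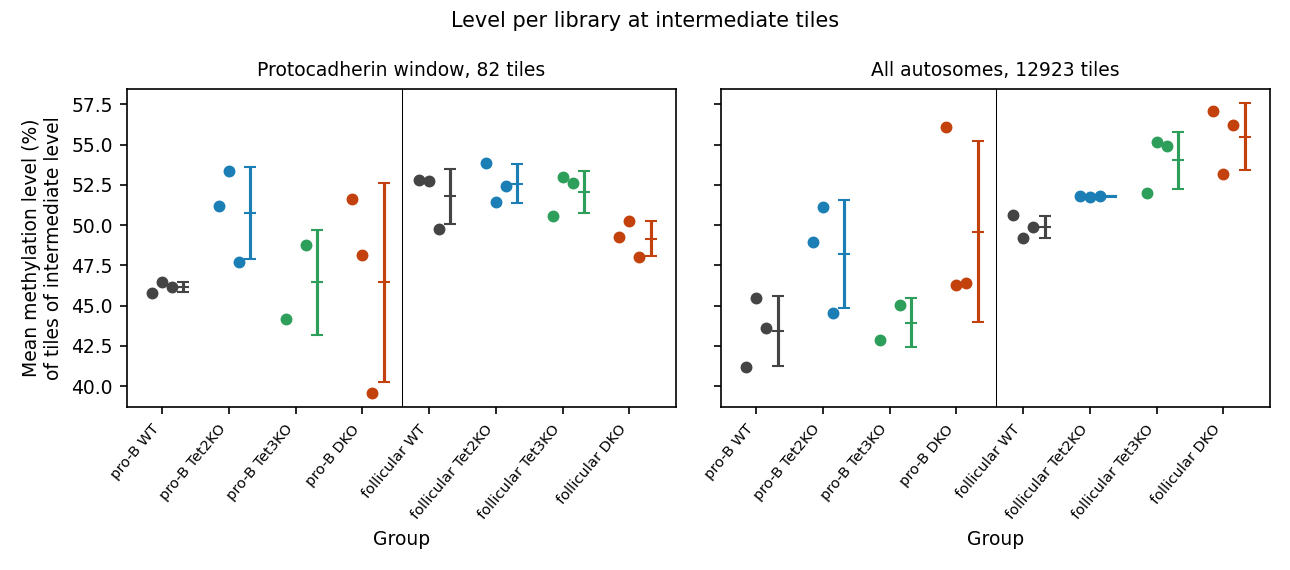
Mean methylation level (%) per library at intermediate tiles of the protocadherin window (left, 82 tiles) and of all autosomes (right, 12923 tiles), by group; each point is 1 library and bars give the group mean ± SD, without pro-B Tet3KO library 8. Follicular DKO libraries lie above all follicular WT libraries on the right (53.1 to 57.1% against 49.2 to 50.6%), and on the left they stand at 48.0 to 50.2% against 49.8 to 52.8%.

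Single tiles were tested with limma on the whole autosomal table of 200813 tiles and called at an adjusted p under 0.05 and a difference of at least 20 points. Of 211 tested tiles of the window, 0 were called between pro-B and follicular WT, where 0.133% of autosomal tiles were called higher in follicular cells and 0.0473% lower. At an unadjusted p under 0.05, 18 were higher and 5 lower, against 5.81% and 2.69% of autosomal tiles. In Tet2KO 0 were called (0.0364% higher and 0.0199% lower over the autosomes), with 13 higher and 2 lower at an unadjusted p under 0.05 (4.04% and 1.92%). In Tet3KO 1 was called higher and 1 lower (0.379% and 0.0378%). With each library centred on its mean deviation, the Tet3KO calls became 5 higher and 2 lower. In DKO 1 was called higher and 0 lower (0.139% and 0.0294%). At an unadjusted p under 0.05, 25 were higher and 9 lower in Tet3KO (8.18% and 3.72%), and 6 higher and 7 lower in DKO (7.21% and 2.54%).

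The tile at chr18:37146801-37146900 gave the clearest change of stage in the window. Pro-B libraries with a value stood at 78.05 and 72.7% (WT), 76, 82.5 and 75% (Tet2KO), 78.3 and 63.6% (Tet3KO) and 74.1 and 72% (DKO). Follicular libraries stood at 92.6, 92.0 and 93.8% (WT), 92.2, 94.6 and 92.1% (Tet2KO), 97.1, 94.3 and 95.8% (Tet3KO) and 87.9, 97.2 and 96.6% (DKO). All 12 follicular libraries lay above all 9 pro-B libraries. By genotype it was called in Tet3KO (24.8 points, SE 3.71, adjusted p = 0.00605, pro-B n = 2) and in DKO (20.9 points, SE 3.71, adjusted p = 0.0241, pro-B n = 2). The Tet3KO call was lost when only those 2 groups were fitted (adjusted p = 0.319), with strata of sex and age as a replicate block (0.077) and without pro-B Tet3KO library 9 (17.5 points). The DKO call was lost with only its 2 groups (0.347), with the block (0.216) and without pro-B DKO library 11 (0.107), and fell just short of 20 points without follicular library 23 or 24.

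Averaging the stage difference over the 4 genotypes used all libraries at once; this contrast was added after the values had been seen. The tile just described then differed by 19.5 points (SE 1.81, adjusted p = 4.23e-05), with a range of 17.7 to 21.4 points and of adjusted p from 1.02e-06 to 0.00384 over 30 alternatives. In all, 9 of 211 tiles of the window had an adjusted p under 0.05 and were higher in follicular cells, against 2.67% of autosomal tiles, and 0 were lower (0.796%). With each library centred on its mean deviation the split was 13 higher and 9 lower, so the one-sidedness depends on how libraries are scaled. With at least 20 points as well, 3 were called higher (0.848%) and 0 lower (0.0911%). These were the tiles starting at 38002301 (35.0 points, SE 9.11, adjusted p = 0.0477), 37897101 (29.8 points, SE 6.23, adjusted p = 0.0145) and 37635201 (26.9 points, SE 6.68, adjusted p = 0.0351). The tile at 37897101 stayed past the adjusted p in all but 1 of its 30 alternatives, the replicate block (adjusted p = 0.0606). Its average hides a difference between genotypes: in DKO the follicular mean was the lower one, at 36.3% against 52.2% in pro-B. That at 38002301 missed it in 20 of 30, with a largest adjusted p of 0.197, and that at 37635201 in 16 of 31, with a largest of 0.0962.

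Tiles past the adjusted p with smaller differences were found at low and at high levels. The tile starting at 37525201 went from a median of 79.2% in 11 pro-B libraries (69.0 to 92.5%) to 89.9% in 12 follicular libraries (81.5 to 94.0%), a difference of 10.7 points (SE 1.88, adjusted p = 0.00416) that stayed past the threshold under its 31 alternatives. The abutting tiles at 37815201 and 37815301 rose by 9.06 points (SE 2.05, adjusted p = 0.021) and 11.1 points (SE 2.60, adjusted p = 0.0256). Without pro-B Tet3KO library 9 both just missed the threshold (adjusted p = 0.0528 and 0.0502), and the first also missed it on a logit scale (0.0905). At 37815301 the pro-B libraries had 0 to 18.8% with a median of 0.535%, and the follicular libraries 10.5 to 32.1% with a median of 14.2%. The abutting tiles at 37249601 and 37249701 belong to the lowest levels, with medians of 1.89 and 4.64% in pro-B libraries and 7.49 and 11.2% in follicular libraries. Their differences were 4.85 points (SE 0.903, adjusted p = 0.00528) and 4.70 points (SE 1.25, adjusted p = 0.0473), of which the second missed the threshold in 23 of 32 alternatives. Both ranges overlapped between the stages.

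The tile at chr18:37897101-37897200 lies between tiles of the run at chr18:37896801-37897600 and was named in the most comparisons. Pro-B WT libraries 1 and 3 were at 0 and 4.55% (library 2 had no value), and Tet3KO libraries 7 and 9 at 11.1 and 0%. The 3 libraries of pro-B Tet2KO had 48.1, 37.2 and 20%, and pro-B DKO libraries had 56.5, 50 and 50%. In follicular cells WT had 53.5, 60.7 and 73.0%, Tet2KO 55.4, 54.3 and 81.8%, Tet3KO 35.2, 40.4 and 80%, and DKO 43.1, 40.6 and 25%. DKO was thus above WT in pro-B and below WT in follicular cells, without overlap in either. Follicular DKO libraries also lay below pro-B DKO libraries without overlap, whereas the other genotypes were higher in follicular cells. None of the single comparisons passed: the difference was 49.9 points for pro-B DKO against WT (SE 13.1, adjusted p = 0.163), -26.1 points for follicular DKO against WT (SE 11.7, adjusted p = 0.803), and 60.1 points for the stages in WT (SE 13.1, adjusted p = 0.0768). The test of the difference between these genotype effects gave -76.0 points with an adjusted p of 0.281. On a logit scale the WT stage difference and that of pro-B DKO from WT were called (adjusted p = 0.0196 and 0.0403). The former was also called in the fit without pro-B WT library 2 (0.0398).

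**Figure D4:**
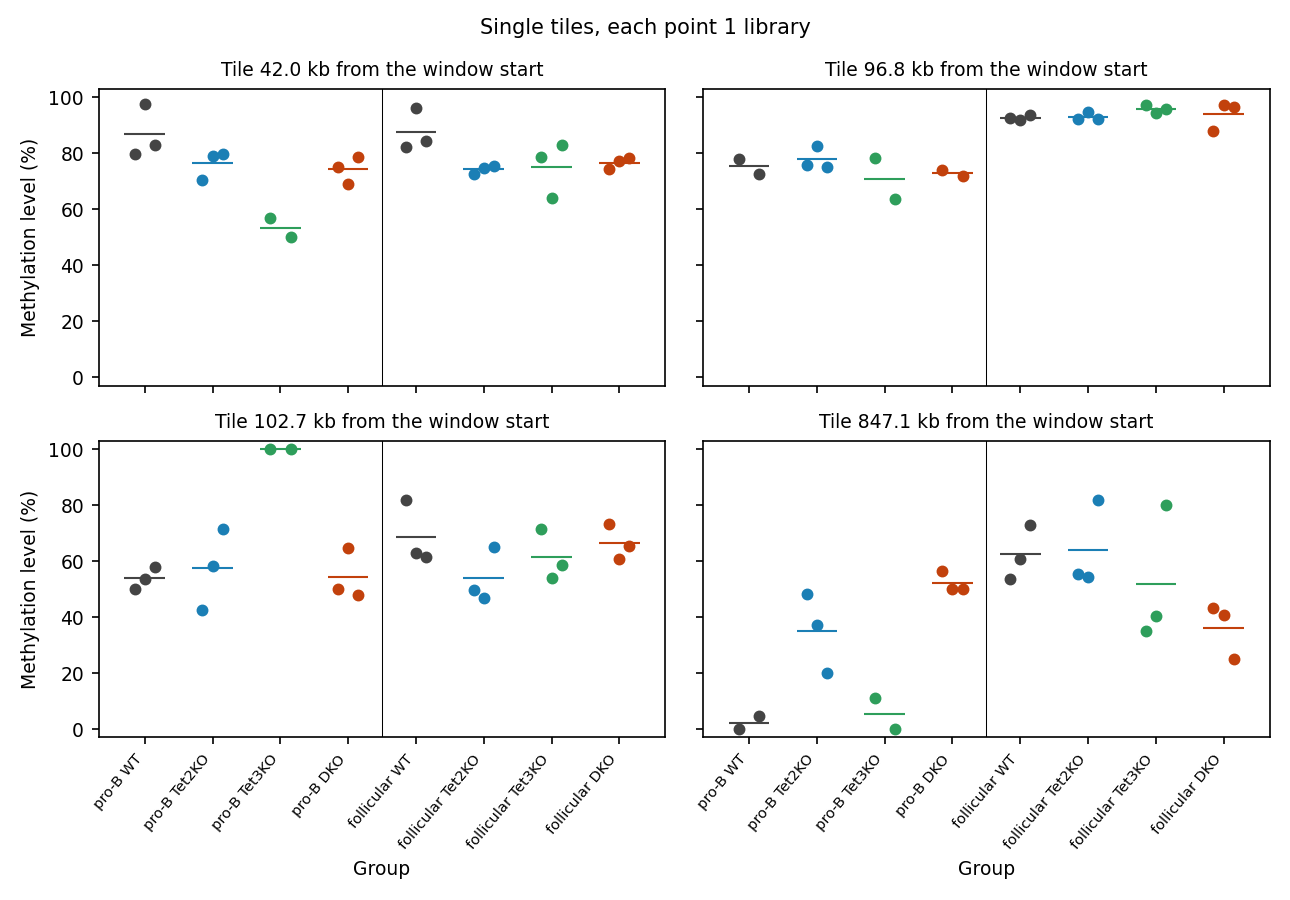
Methylation level (%) per library at 4 single tiles, named by their distance from the start of the window; each point is 1 library, horizontal lines are group means, the vertical line parts pro-B from follicular groups. At 96.8 kb every follicular library lies above every pro-B library, at 42.0 and 102.7 kb the pro-B Tet3KO libraries stand apart from pro-B WT, and at 847.1 kb pro-B WT is at 0 to 4.55%.

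In follicular DKO cells the window stood slightly below WT, while the rest of the autosomes stood above it. At the 82 intermediate tiles follicular DKO libraries 22, 23 and 24 had 49.2, 50.2 and 48.0%, and follicular WT libraries 52.8, 52.8 and 49.8%. The difference was -2.62 points (SE 1.18), and the groups overlapped by 1 library on each side. Over the 12923 intermediate autosomal tiles the same libraries moved the other way, by 5.58 points (SE 1.26), with no overlap. At intermediate tiles of the flanks (30 tiles) the difference was 7.89 points (SE 1.29), also with no overlap. Over all 135 common tiles of the window it was smaller, at -1.46 points (SE 0.774) with overlap. There 61 tiles were higher and 73 lower in DKO. Over all common autosomal tiles it was 1.14 points (SE 0.224). The DKO libraries had values for 450, 464 and 414 window tiles and the WT libraries for 512, 471 and 501; the part of this in the difference was not tested.

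Each library's window level can also be set against its own autosomal level. The window minus the autosomes, at intermediate tiles, was 2.19, 3.54 and -0.0895 points in follicular WT and -7.85, -2.91 and -8.18 points in follicular DKO, with no overlap. Follicular Tet3KO libraries had -1.40, -2.20 and -2.27 points, all between the WT and the DKO libraries. Follicular Tet2KO libraries had 2.04, -0.336 and 0.585 points and overlapped WT. In pro-B WT the gap was 4.62, 0.962 and 2.55 points. Tet2KO pro-B libraries had 2.25, 2.21 and 3.14 points, those of Tet3KO 1.29 and 3.73 points and those of DKO -4.47, 1.84 and -6.85 points. Pro-B DKO therefore overlapped pro-B WT through library 11. As scores over the members these gaps carry no p.

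Tile by tile the follicular DKO difference was spread thinly. Of the 82 intermediate tiles, 12 (14.6%) were at least 10 points lower in DKO and 3 (3.66%) at least 10 points higher, against 4.78% lower and 26.96% higher among intermediate autosomal tiles. No other common tile of the window differed by that much. Among the 82, all DKO libraries lay below all WT libraries at 9, where the autosomal share was 2.64%, and above them at 1, where it was 16.3%. In Tet3KO 5 tiles lay below WT and 5 above (2.72% and 13.8%), and in Tet2KO 4 below and 6 above (3.88% and 9.01%). The widest of these gaps was at chr18:37092101-37092200, where WT stood at 68.0% ± 1.53 and DKO at 48.2% ± 11.3 (SD, n = 3 each), a difference of -19.9 points. At chr18:37425001-37425100 the levels were 57.7% ± 6.74 and 40.1% ± 3.73, and at chr18:37897401-37897500 they were 70.9% ± 4.70 and 58.1% ± 8.86. The single exception upwards, at chr18:37152501-37152600, had 16.6% ± 1.91 in WT and 22.03% ± 2.86 in DKO. These tiles were picked out after their values had been seen.

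**Figure D5:**
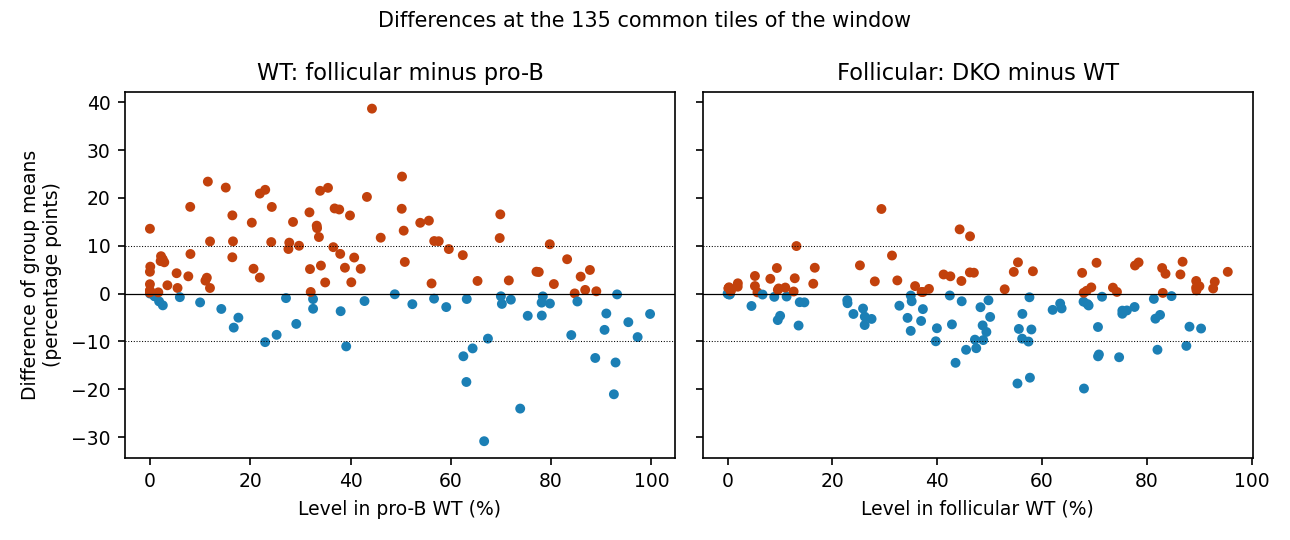
Difference of group means (percentage points) at each of the 135 common tiles of the window against the level (%) in the reference group, for follicular minus pro-B WT (left) and follicular DKO minus WT (right); red points are above 0, blue points at or below it, dotted lines mark 10 points. On the left 36 tiles lie at least 10 points above 0 and 10 at least 10 below, on the right 3 and 12.

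None of this passed at single tiles. Of the 211 tested tiles, 0 were called in follicular DKO against WT, where limma called 0.128% of autosomal tiles higher and 0.000996% lower. At an unadjusted p under 0.05, 2 window tiles were higher and 4 lower, against 4.54% and 1.28% of autosomal tiles. The lower levels are therefore given as counts and ranges. In follicular Tet2KO 0 tiles were called (0.00299% higher and 0% lower over the autosomes), with 0 higher and 3 lower at an unadjusted p under 0.05 (1.69% and 1.18%). In follicular Tet3KO 0 were called (0.00996% and 0%), with 5 higher and 3 lower at an unadjusted p under 0.05 (2.74% and 1.22%). At intermediate tiles the window differed from WT by 0.784 points (SE 1.22) in Tet2KO and 0.284 points (SE 1.25) in Tet3KO, with overlap in both. The autosomes differed by 1.90 points (SE 0.399) and 4.12 points (SE 1.10), with no overlap in either. All 3 follicular knockouts share the same 3 WT libraries.

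The follicular tiles with the widest separation of the groups illustrate how large a difference could go uncalled. At the tile starting at 37897501, Tet2KO stood at 58.1% ± 15.8 and Tet3KO at 54.2% ± 3.89 against 35.8% ± 5.32 in WT (SD, n = 3 each), and neither passed (limma, adjusted p = 1 in both). With the replicate block the Tet3KO difference there turned from 18.4 to -0.901 points, but Tet3KO and WT share no stratum of that block. The tile at 38002001 had 75% ± 15.2 in 2 Tet3KO libraries and 29.9% ± 10.2 in 3 WT libraries (adjusted p = 1). At 37885801 follicular DKO had 72.5% ± 12.1 (n = 3) against 51.1% ± 13.3 in 2 WT libraries, with an adjusted p of 1.

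In pro-B cells 1 of the 3 knockouts lay apart from WT. At the 82 intermediate tiles, pro-B WT libraries had 45.8, 46.4 and 46.2%, and all Tet2KO libraries lay above them, at 51.2, 53.3 and 47.7%, a difference of 4.60 points (SE 1.65). The autosomal difference was of the same size, at 4.77 points (SE 2.30). Tet3KO libraries, at 44.1 and 48.8%, and DKO libraries, at 51.6, 48.1 and 39.6%, lay on both sides of WT. Without overlap, 12 of the 82 tiles were higher and 5 lower in Tet2KO (9.15% and 2.86% of intermediate autosomal tiles), 11 and 10 in Tet3KO (11% and 9.54%), and 4 and 4 in DKO (10.4% and 2.37%). Tet2KO libraries were also the pro-B group with the most window tiles (457 ± 72.2 against 361 ± 68.2 in WT, SD, n = 3 each), and all came from females; the part of either in the difference was not tested. The tile tests called 0 of 211 in Tet2KO (0.0558% higher and 0.0129% lower over the autosomes) and 0 in DKO (0.187% and 0.0438%). At an unadjusted p under 0.05, 16 were higher and 5 lower in Tet2KO (4.28% and 2.48%), and 12 higher and 8 lower in DKO (6% and 2.83%).

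The 2 calls between genotypes were both in pro-B Tet3KO, 1 higher and 1 lower, where 0.164% and 0.257% of autosomal tiles were called. At an unadjusted p under 0.05, 17 tiles were higher and 17 lower, against 5.93% and 4.37%. The group rests on 2 libraries at these tiles. At chr18:37152701-37152800, Tet3KO libraries 7 and 9 were both at 100%, and pro-B WT at 50, 53.7 and 58.1%. The difference was 46.1 points (SE 8.51, adjusted p = 0.0176). Follicular Tet3KO libraries stood at 71.3, 54.0 and 58.7%, which made the same tile the one called lower in follicular than in pro-B Tet3KO (-38.7 points, SE 8.51, adjusted p = 0.0459). That stage call was lost in 7 of 14 alternatives: with only the 2 groups (adjusted p = 0.247), with the replicate block (0.18), with sex as a covariate (0.0714), and without library 7, 9, 20 or 21 (0.0728, 0.0942, 0.117 and 0.106). The depth behind the 2 values of 100% is unknown, and the tile was not that high in any other pro-B group, whose libraries had 42.7 to 71.4%. The genotype call was lost when only the 2 groups were fitted (adjusted p = 0.16) and with the replicate block (0.429). Tet3KO and WT share no stratum of sex and age, so the block compares them only through other groups and cannot check this call.

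The lower call was at chr18:37092001-37092100. Pro-B Tet3KO libraries 7 and 9 had 56.9 and 50%, and pro-B WT libraries 79.9, 97.7 and 82.9%, a difference of -33.3 points (SE 5.79, adjusted p = 0.0117). Every other knockout group also had a lower mean than its WT at this tile, from 74.3 to 76.6% against 86.8% ± 9.54 in pro-B and 87.6% ± 7.44 in follicular WT (SD, n = 3 each). Averaged over both stages, Tet3KO was lower by 22.8 points (-22.8, SE 3.88, adjusted p = 0.0197), the only tile of the window past an adjusted p of 0.05 in that contrast, where 0.0911% of autosomal tiles were lower. This contrast was also added after the values had been seen. It includes the pro-B values just given, so it is no separate support for the pro-B call, and it was not refitted under the alternatives. The same contrast found 0 tiles of the window for Tet2KO and for DKO. Autosomal tiles past that p made up 0.0249% higher and 0.00847% lower for Tet2KO, and 0.374% higher and 0.0289% lower for DKO. The pro-B call was lost on a logit scale (adjusted p = 0.143) and with only the 2 groups fitted (0.946).

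Among pro-B tiles that did not pass, some had wide gaps. At the tile starting at 37669801 DKO libraries had 54.5, 73.7 and 27.1% and WT libraries 100, 90.9 and 86.7% (-40.8 points, SE 9.79, adjusted p = 0.109). Follicular WT libraries had 72.7, 72.2 and 69.4% there and follicular DKO libraries 66.7, 65.7 and 80%, so the groups overlapped at that stage. At 37345501 the pro-B WT libraries were all at 100% and the Tet2KO libraries at 80.6, 12 and 50% (-52.5 points, SE 12.6, adjusted p = 0.2). At 37455001 Tet2KO stood at 95.2% ± 8.32 against 59.6% ± 18.1 in WT (SD, n = 3 each), with an adjusted p of 0.41.

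Whether genotype changed the stage difference was tested by the interaction of stage and genotype in the same fit. It called 0 of 211 tiles of the window for Tet2KO, Tet3KO and DKO. Autosomal shares called were 0.00299% higher and 0.0115% lower for Tet2KO, 0.0697% and 0.0209% for Tet3KO, and 0.0134% and 0.0154% for DKO. The smallest adjusted p of the window was 0.0989, for Tet3KO at chr18:37152701-37152800 (-53.5 points).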

How the data were processed

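RRBS levels of 24 libraries were used; the 16 RNA samples were not analysed here. The labels give each library's group, sex and age. The deposited table holds, per the file headers, a methylation fraction per tile and library; fractions were multiplied by 100. Trim Galore and methylKit are named without versions, and mm9 and hg19 as builds, in the submitters' processing notes; coordinates were taken as mm9, since chromosome 1 reaches 197193600. For the aligner, and likewise for a coverage minimum, the answer is not given in the sources used here, so no counting error can be stated.

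Limma 3.58.1 (R 4.3.3, with the package data.table at version 1.17.8) was fitted to levels of 200813 autosomal tiles with the 8 groups as a factor and a trended prior spread; tests are two-sided with Benjamini-Hochberg adjustment over the whole table, and the fit was tested on simulated data. Runs were fitted over 23 libraries in the same way. The SE of a tested difference is limma's, from the spread over all 8 groups and its prior. The SE of a difference of mean levels, and all SD, are over the libraries of the groups named. Named tiles are those called or, where none was called, the 3 with the widest difference whose groups do not overlap, except where said. The window, lists and tests were chosen with earlier results of these data known. Alternatives were a logit scale, only the 2 groups compared, sex as covariate, centring on the median or (added later) mean deviation, 30 points, strata of sex and age as a replicate block, 2 smaller tile sets, other run definitions and each library left out. Libraries whose numbers differ by 12 share genotype, sex and age, but the labels do not say that they share an animal.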

Additional observations from a re-analysis of the deposited data

How the results depend on the processing

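No run of the window was called in any comparison under any alternative. Counts of called tiles were small, and most of their changes were of 1 or 2 tiles. With only the 2 groups compared, the counts fell to 0 for the DKO stage difference (1 as reported), the Tet3KO stage difference (2) and pro-B Tet3KO against WT (2). With strata of sex and age as a replicate block they were 0, 1 and 1, and 0 for the stage difference over 4 genotypes (3), with 8 in place of 9 tiles past the adjusted p there; the block changed no other count of calls. Requiring 30 points gave 0, 1 and, over 4 genotypes, 1. With tiles valued in all 24 libraries, the counts were 0 for all 4 of these results, and 1 (from 9) for tiles past the adjusted p over 4 genotypes. With tiles valued in 23 libraries they were 0 for DKO, 1 for Tet3KO and 1 over 4 genotypes. On a logit scale 1 tile was called for the stages in WT and 1 for pro-B DKO (0 as reported), and 1 over 4 genotypes. Sex as a covariate left 1 for the Tet3KO stage difference. Centring on the mean deviation, chosen after seeing the data, gave 0 for the DKO stage difference, 7 for the Tet3KO one and 22 for the 9.

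Leaving out 1 library gave 0 to 2 calls for the DKO stage difference (0 without pro-B DKO library 11 or follicular DKO library 23, 2 without pro-B DKO library 10), 1 to 7 for Tet3KO (7 without pro-B library 7, 1 without follicular library 21), 0 to 1 for WT (1 without pro-B library 2 or 3), 1 to 5 over 4 genotypes (5 without pro-B Tet3KO library 7) and 6 to 13 past the adjusted p there. For pro-B cells it gave 0 to 2 for DKO (2 without WT library 3), 0 to 2 for Tet2KO (2 without WT library 3) and 2 to 10 for Tet3KO (10 without Tet3KO library 7, 7 without WT library 3, 5 without Tet3KO library 9). A group left with 1 value is assumed to vary like the others. Over the 135 common tiles the mean level differed from WT by -1.46, 0.732 and 0.374 points in follicular DKO, Tet2KO and Tet3KO. In pro-B Tet2KO and Tet3KO it differed by 2.57 and -0.0367 points. Stage differences over these tiles are given above. Over all valued tiles of each library, which differ between libraries, the mean differences between stages were 8.47 points in WT, 12.9 in Tet3KO and 6.17 in DKO. Those from pro-B WT were 5.68 in Tet2KO and -4.31 in Tet3KO. Over the 14 tiles valued in all 24 libraries they were 6.69 for the stages in WT, -1.36 for those in Tet2KO, 7.20 for pro-B Tet2KO, 2.51 for pro-B Tet3KO, and -2.57, -0.859 and -0.949 for follicular DKO, Tet2KO and Tet3KO against WT. Centred on the mean deviation, those over the 135 common tiles were 2.63 (WT stages), 2.44 (Tet3KO stages) and -2.60 (follicular DKO). The tile at 37152601 turned from 21.3 to -63.0 points in follicular DKO with the block, and that at 37897501 from 18.4 to -0.901 points in follicular Tet3KO. Neither was called in either fit. Tet3KO shares no stratum of sex and age with WT, and DKO shares only females of 6 weeks. With the block these groups are therefore set against WT wholly or in part through other groups. The part of this in the turned signs was not tested. Unknown depth limits what a level of 0 or 100% shows.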
